A study of Caenorhabditis elegans with 6 samples.

Results

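The genes described here are the 8 core genes of insulin-like signalling in the nematode Caenorhabditis elegans: daf-2, age-1, pdk-1, akt-1, akt-2, sgk-1, daf-18 and daf-16. They were selected by gene name, by a rule with no threshold on a measured value, and all 8 were among the 16262 genes of the deposited table of normalized counts. RNA came from whole young adults of 2 knock-in strains, each with 3 libraries. In the LARP-1::GFP strain (allele yq636) the La-related RNA-binding protein LARP-1 carries green fluorescent protein, and in the LARP-1::APEX2 strain (allele yq637) it carries APEX2, an engineered peroxidase that can tag nearby RNA with a biotin probe. Both strains were treated alike: worms raised at 20 °C on Escherichia coli OP50 were soaked for 2 h at 25 °C with 3.3 mM biotin-aniline and exposed to H2O2 for 2 min. Each fusion was thus measured in 1 allele, and no strain without a fusion and no sample without the probe was analysed here. The titles speak of immunoprecipitation, but the protocols in the labels describe total RNA with no pull-down step. A difference can therefore lie in recovery near LARP-1 or in the RNA level of the strains, and these cannot be told apart.

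Insulin-like peptides bind DAF-2, the only insulin and IGF receptor homologue of the worm. The active receptor recruits the phosphoinositide 3-kinase AGE-1, whose lipid product draws the kinases PDK-1, AKT-1 and AKT-2 to the membrane. The lipid phosphatase DAF-18 removes that lipid. PDK-1 activates AKT-1, AKT-2 and SGK-1. AKT-1 and AKT-2 phosphorylate the FOXO transcription factor DAF-16 and hold it in the cytoplasm, so that low signalling lets DAF-16 enter the nucleus. In worms the pathway is known for its part in dauer formation, adult lifespan, fat storage and stress resistance.

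Of the 8 core genes, the lipid kinase gene age-1 was higher and the transcription factor gene daf-16 was lower in the LARP-1::APEX2 libraries. The means stood at 1.52 times the LARP-1::GFP level for age-1 and 0.783 times that level for daf-16. The receptor gene, the 4 protein kinase genes and the phosphatase gene did not pass the test. Hence 2 of the 8 genes were called, 1 in each direction, where 21.7% of the 10534 tested genes were called (limma on log2(value + 1), Benjamini-Hochberg adjusted p under 0.05). That share was 11.6% for higher and 10.1% for lower genes, so the number of calls among the 8 was near the background. The median log2 difference of the 8 genes, APEX2 minus GFP, was -0.06, against 0.02 over all tested genes, with 4 differences positive and 4 negative. In these bulk samples, fewer cells of a type and less RNA per cell cannot be told apart. Without APEX2 replicate 1, which stood apart from its group, age-1 and daf-16 were again called and no other of the 8, where 23.7% of tested genes were called. With the replicate number as a block, under which 17.7% of tested genes were called, age-1 was called and daf-16 was not.

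**Figure D1:**
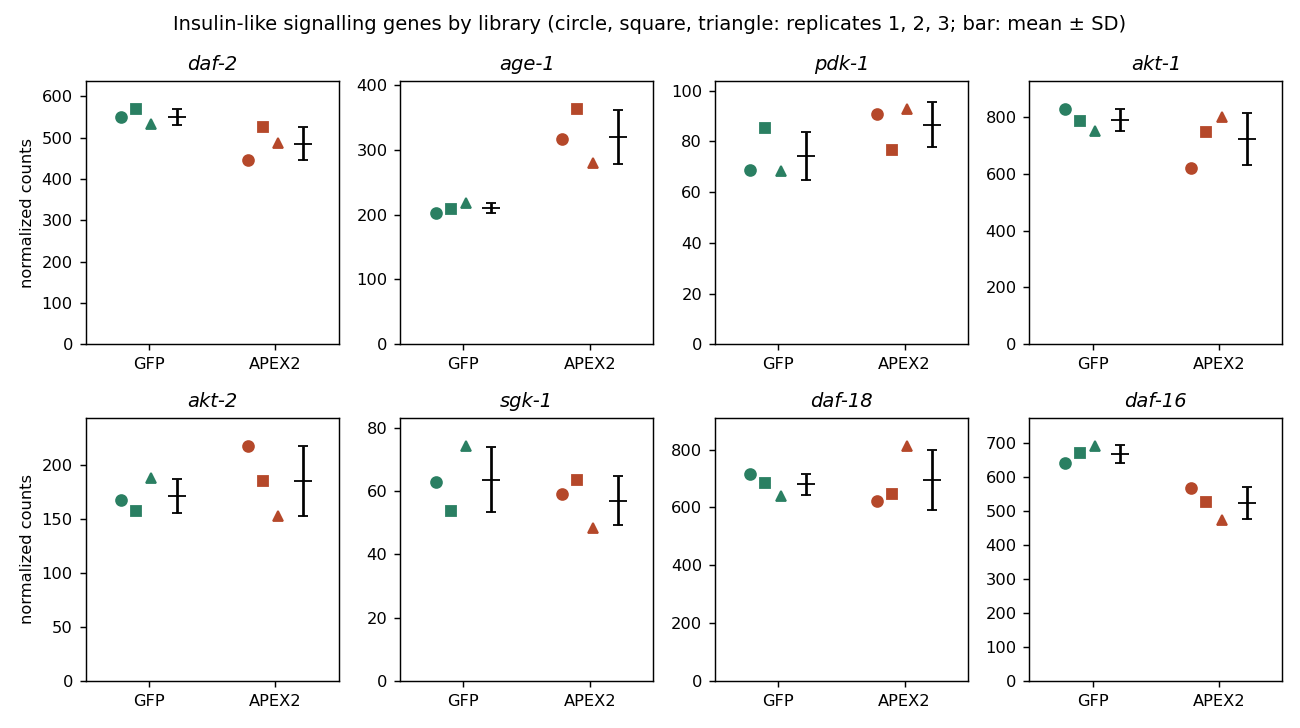
Normalized counts of the 8 genes (y axis, from 0) in each library, with LARP-1::GFP in green, LARP-1::APEX2 in red, replicates 1, 2 and 3 as circle, square and triangle, and black bars for the mean ± SD of 3 libraries. The groups do not overlap for daf-2, age-1 and daf-16 and overlap for the other 5 genes.

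The libraries held 3824041 to 6414569 reads on listed genes. On the second principal component of the tested genes, with 19.5% of the variance, APEX2 replicate 1 lay at 28.3 and APEX2 replicates 2 and 3 at -18.4 and -17.2, while the first, with 50.9%, separated the groups. The tagged gene itself, larp-1, had a log2 difference of 0.14 ± 0.09 that did not pass (limma adjusted p = 0.30). The labelled source, the whole animal, was checked with 34 marker genes of 8 tissues and cell types, all of them listed, of which 7 rose and 4 fell among the 31 tested, where 11.6% of all tested genes rose and 10.1% fell. Genes of neurons, muscle, pharynx, intestine, hypodermis, germline and oocytes were all present. Of the sperm genes, msp-3 had means of 168 with GFP and 201 with APEX2 and msp-142 of 160.1 and 139 normalized counts, and neither passed, while spe-9 and spe-38 had group means of at most 1.13.

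Per length of exon, the most abundant of the 8 was akt-1 and the least abundant were pdk-1 and sgk-1. In the LARP-1::GFP libraries akt-1 stood at 347 ± 16.9 normalized counts per kb of exon (SD, n = 3), daf-18 at 204 ± 11.2 and daf-16 at 181 ± 6.81. Below them came akt-2 at 72.0 ± 6.54, daf-2 at 66.3 ± 2.22, age-1 at 53.4 ± 1.93, sgk-1 at 38.9 ± 6.27 and pdk-1 at 30.6 ± 3.93, so that the highest and lowest means were 11.3-fold apart. Within this order, the ranges of akt-2 and daf-2 overlapped, as did those of sgk-1 and pdk-1, and no other neighbours overlapped. In the LARP-1::APEX2 libraries age-1 moved up to 81.5 ± 10.6, beside akt-2 at 77.9 ± 13.7, whose range it overlapped, and above daf-2 at 58.5 ± 4.82. The other levels there were 318 ± 40.5 for akt-1, 208 ± 30.95 for daf-18, 142.02 ± 12.8 for daf-16, 35.8 ± 3.65 for pdk-1 and 34.8 ± 4.71 for sgk-1, of which the ranges of pdk-1 and sgk-1 overlapped. In rank among the tested genes, these levels ran from the 31.1 percentile for pdk-1 to the 82.0 percentile for akt-1. Exonic length is the union over annotated transcripts, which can exceed the length of a single transcript where a gene has several, such as daf-2 with 7 and daf-16 with 11.

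**Figure D2:**
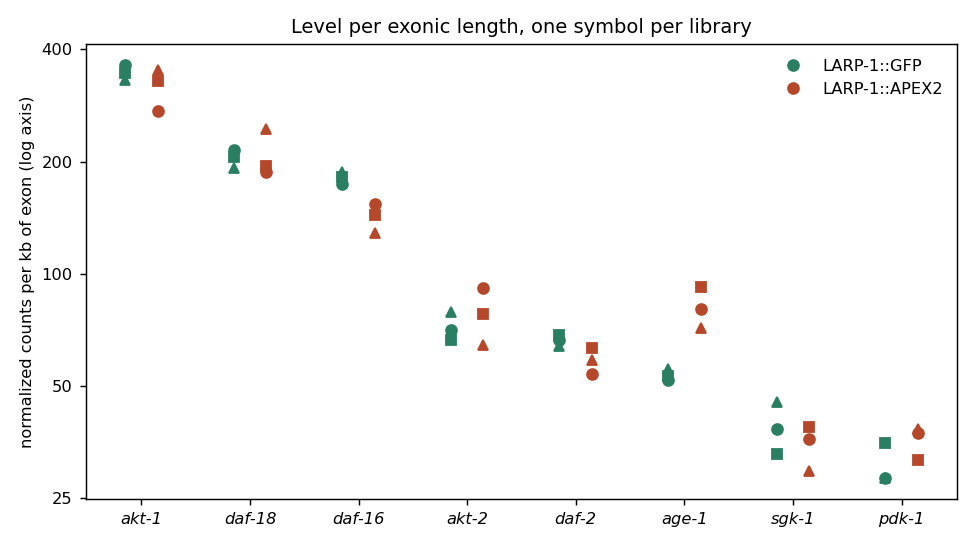
Normalized counts per kb of exon (y axis, log scale) for each library of LARP-1::GFP (green) and LARP-1::APEX2 (red), with circle, square and triangle for replicates 1, 2 and 3 and genes ordered by their LARP-1::GFP mean. The red symbols of age-1 lie above its green symbols, at the height of akt-2, and those of daf-16 lie below its green symbols.

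The receptor gene daf-2 (WBGene00000898, chromosome III, 2994514 to 3040846, minus strand, WBcel235) had 549.8, 569 and 532 normalized counts in LARP-1::GFP replicates 1 to 3. In LARP-1::APEX2 replicates 1 to 3 it had 445, 525 and 486. All 3 APEX2 libraries lay below all 3 GFP libraries, by a small margin. Its log2 difference of -0.18 ± 0.11 did not pass (SE; limma adjusted p = 0.26), with a 95% interval from -0.41 to 0.05. The groups failed to overlap for 3 of the 8 genes, daf-2, age-1 and daf-16, as they did for 37.4% of all tested genes (19.9% higher and 17.5% lower with APEX2). Without APEX2 replicate 1, the lowest library, the daf-2 difference was -0.12. The locus spans 46333 bases, and a lincRNA gene on the same strand, linc-143, lies in it without sharing exonic sequence.

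Most listed genes for ligands of the receptor had low counts in these libraries. Of 40 insulin-like peptide genes, 34 were listed and 22 of those had a mean under 10, the minimum for testing, and many of these peptides are known to be made in small numbers of neurons. Of the 12 tested, 0 rose, 2 fell and 10 did not pass, with a median log2 difference of 0.08, where 11.6% of all tested genes rose and 10.1% fell. The peptide gene ins-23 had 18.7, 13.4 and 20.6 normalized counts with GFP and 2.36, 0.933 and 5.53 with APEX2, the latter resting on 1 to 8 reads per library. Its log2 difference was -2.39 ± 0.50 (limma adjusted p = 0.0040), DESeq2 gave it no adjusted p, and without a GFP library it was not tested. It passed the minimum only through the GFP group (means of 17.6 and 2.94), so its place among the genes that fell follows in part from that filter. The gene ins-17 fell, from 41.2, 48.2 and 59.4 to 29.5, 27.1 and 31.8 normalized counts, a log2 difference of -0.72 ± 0.23 (adjusted p = 0.041). It no longer passed when a GFP library or APEX2 replicate 2 was left out (adjusted p from 0.058 to 0.20), nor with correction for exonic length (0.096). DESeq2 did not call ins-17 (adjusted p = 0.069), whereas edgeR did (0.036). With limma it also failed with no filter (adjusted p = 0.057), quantile normalization (0.055) and the replicate block (0.062). The agonist gene daf-28 had 12.8, 20.2 and 20.6 normalized counts with GFP and 35.4, 32.7 and 21.4 with APEX2, a difference of 0.71 ± 0.31 that did not pass (adjusted p = 0.12).

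The gene age-1 (WBGene00000090, chromosome II, 11519328 to 11527054, minus strand) encodes the catalytic subunit of phosphoinositide 3-kinase. It had 203, 208 and 218 normalized counts in the GFP libraries and 317, 363 and 280.2 in the APEX2 libraries. The lowest APEX2 library stood well above the highest GFP library, and the GFP libraries lay close together. The means were 320.1 ± 41.5 against 209.9 ± 7.58 (SD, n = 3), a log2 difference of 0.60 ± 0.13 (SE; limma adjusted p = 0.0050) with a 95% interval from 0.32 to 0.88. It was higher in 3 of 3 APEX2 libraries than the GFP mean, by 0.59, 0.79 and 0.42 on the log2 scale. The call held without any single library (differences of 0.50 to 0.69, highest adjusted p 0.031) and with correction for exonic length (0.53, adjusted p = 0.010). In size, the difference was at the 81.3 percentile of all tested genes. On the opposite strand, Y62F5A.10 lies within the span of age-1 and B0334.10 overlaps its end by 244 nt, with means of 3.37 and 0.884 normalized counts, of which only B0334.10 shares exonic sequence, 192 nt, with it.

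The adaptor subunit gene aap-1, whose product partners AGE-1, had 475, 453 and 410.0 normalized counts with GFP and 709, 528 and 553 with APEX2. Its groups did not overlap, and the highest value was that of APEX2 replicate 1. The log2 difference was 0.41 ± 0.13 (limma adjusted p = 0.032), and 0.28 without APEX2 replicate 1 (adjusted p = 0.068). It also failed to pass when any GFP library was left out (adjusted p from 0.058 to 0.155), when corrected for exonic length (0.062) and with quantile normalization (0.061). In the list of 11 cascade partners to which aap-1 belongs, 7 genes were listed and tested, of which 1 rose, 0 fell and 6 did not pass, against 11.6% higher and 10.1% lower over all tested genes. Their median log2 difference was 0.14. Among those that did not pass, the PP2A regulatory subunit gene pptr-1, whose product acts on AKT-1, had a difference of 0.14. The TORC2 subunit genes rict-1 and sinh-1, of a complex that acts on SGK-1, had 0.09 and -0.23.

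The phosphatase gene daf-18 (WBGene00000913, chromosome IV, 420011 to 425177, minus strand) acts against AGE-1. It had 715, 684 and 641 normalized counts with GFP and 623, 648 and 813 with APEX2. The groups overlapped, and APEX2 replicate 3 alone was above the GFP libraries. Its log2 difference of 0.02 ± 0.12 did not pass (limma adjusted p = 0.92), with a 95% interval from -0.23 to 0.27. The sign of that difference turned under several rescalings, so no direction is given.

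The gene pdk-1 (WBGene00003965, chromosome X, 1321344 to 1327986, plus strand) encodes the kinase that activates AKT-1, AKT-2 and SGK-1. It had 68.7, 85.1 and 68.5 normalized counts with GFP and 90.7, 76.5 and 92.7 with APEX2. The groups overlapped through GFP replicate 2 and APEX2 replicate 2. The log2 difference of 0.22 ± 0.18 did not pass (limma adjusted p = 0.43), and its 95% interval ran from -0.17 to 0.61. With 60 to 134 reads per library, a difference of the size seen for age-1 lay within that interval. Its last 15 nt overlap F21E9.2 on the opposite strand, which had a mean of 2.52 normalized counts.

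The Akt kinase gene akt-1 (WBGene00000102, chromosome V, 10248905 to 10252845, plus strand) had 829, 789 and 752 normalized counts with GFP and 621, 749 and 799.8 with APEX2. APEX2 replicate 1 was the lowest library and the others overlapped. Its log2 difference was -0.13 ± 0.11 (limma adjusted p = 0.45) with a 95% interval from -0.37 to 0.11, and -0.03 without APEX2 replicate 1. It shares 8 nt of exon with rop-1, the Ro ribonucleoprotein gene on the opposite strand, which had a mean of 496.5 normalized counts. The second Akt gene, akt-2 (WBGene00000103, chromosome X, 14147700 to 14152070, plus strand), had 168, 158 and 188 normalized counts with GFP and 218, 186 and 153 with APEX2. Here APEX2 replicate 1 was the highest library and APEX2 replicate 3 the lowest, so the APEX2 range enclosed that of GFP. The difference was 0.10 ± 0.16 (adjusted p = 0.69) with a 95% interval from -0.23 to 0.44, and -0.02 without APEX2 replicate 1.

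The gene sgk-1 (WBGene00004789, chromosome X, 16254842 to 16262122, minus strand) encodes a serum- and glucocorticoid-inducible kinase homologue. It had the fewest reads of the 8 genes, 48 to 70 per library. Its normalized counts were 62.8, 53.8 and 74.2 with GFP and 58.9, 63.5 and 48.4 with APEX2, and the groups overlapped. The log2 difference of -0.15 ± 0.21 did not pass (limma adjusted p = 0.65), with a 95% interval from -0.60 to 0.29.

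The gene daf-16 (WBGene00000912, chromosome I, 10750498 to 10776703, plus strand) encodes the FOXO factor at the end of the cascade. It had 642, 671 and 692 normalized counts with GFP and 568, 528 and 474 with APEX2. Every APEX2 library lay below every GFP library. The means were 523 ± 47.2 against 668 ± 25.1 (SD, n = 3), a log2 difference of -0.36 ± 0.11 (SE; limma adjusted p = 0.028) with a 95% interval from -0.58 to -0.13. Against the GFP mean, the APEX2 libraries stood at -0.23, -0.34 and -0.49 on the log2 scale, a drop in 3 of 3. Without APEX2 replicate 1 the difference was -0.42 (adjusted p = 0.0063). Leaving out any other single library ended the call (differences of -0.38 to -0.29, adjusted p from 0.064 to 0.13). In size, the difference was at the 59.6 percentile of all tested genes. The table gives 1 value per gene, so the 11 annotated transcripts of daf-16, which come from several promoters, could not be told apart. The 6 noncoding RNA genes on the opposite strand within its span share 84 nt of exon with it through H36N01.5 alone.

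**Figure D3:**
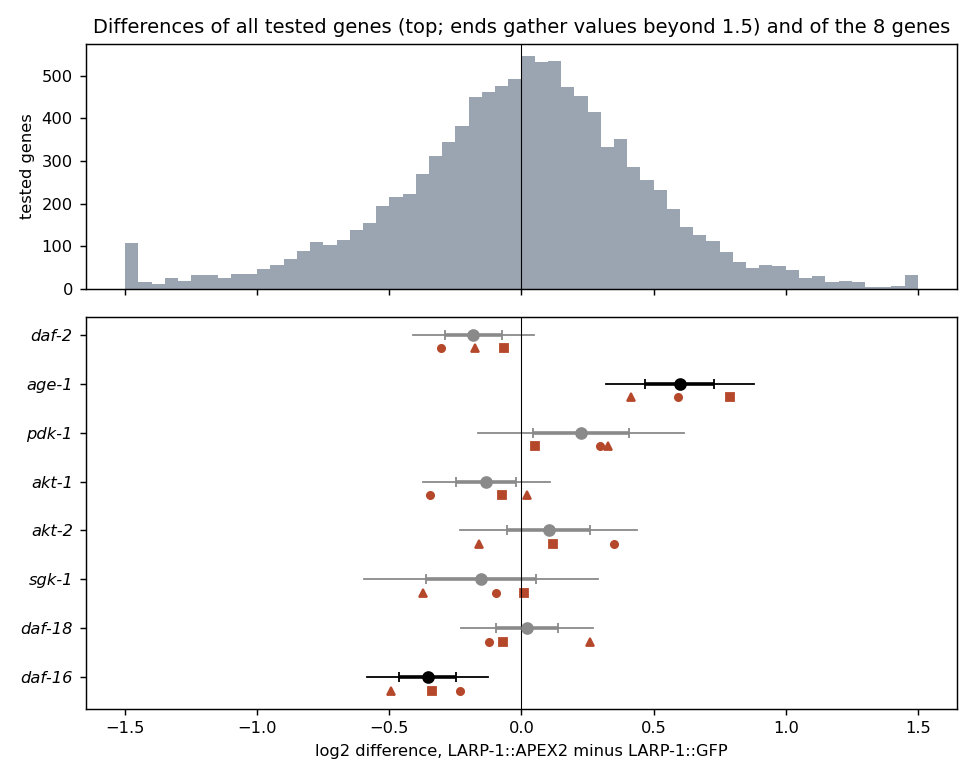
Top, a histogram of the log2 differences (x axis, LARP-1::APEX2 minus LARP-1::GFP) of the 10534 tested genes (y axis, number of genes). Bottom, the difference of each of the 8 genes as a dot with its SE (thick bar) and 95% interval (thin line), black for adjusted p under 0.05, and below it each APEX2 library against the GFP mean in red: age-1 lies at 0.60 and daf-16 at -0.36, and the intervals of the other 6 cross 0.

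Ratios of 2 genes within a library, on the log2(value + 1) scale, were compared for 4 pairs with exact two-sided permutation tests over the 6 libraries, whose smallest possible p is 0.1. The log2 ratio of the lipid kinase gene age-1 to the lipid phosphatase gene daf-18 was -1.81, -1.71 and -1.55 with GFP and -0.97, -0.83 and -1.53 with APEX2. APEX2 replicates 1 and 2 stood well above the GFP libraries, whereas APEX2 replicate 3 lay just above GFP replicate 3. The mean ratio differed by 0.58, which is 1.49-fold (exact permutation p = 0.1, adjusted over the 4 ratios 0.4). The log2 ratio of akt-1 to akt-2 was 2.20 ± 0.18 with GFP and 1.96 ± 0.44 with APEX2 (SD, n = 3; exact permutation p = 0.7, adjusted 0.9). For akt-1 to sgk-1 it was 3.62 ± 0.27 and 3.64 ± 0.33 (SD, n = 3; exact permutation p = 0.9, adjusted 0.9). For daf-2 to daf-16 it was -0.28 ± 0.09 and -0.11 ± 0.21 (SD, n = 3; exact permutation p = 0.3, adjusted 0.6). The groups overlapped in the last 3 ratios, and no ratio passed, which this design does not allow.

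**Figure D4:**
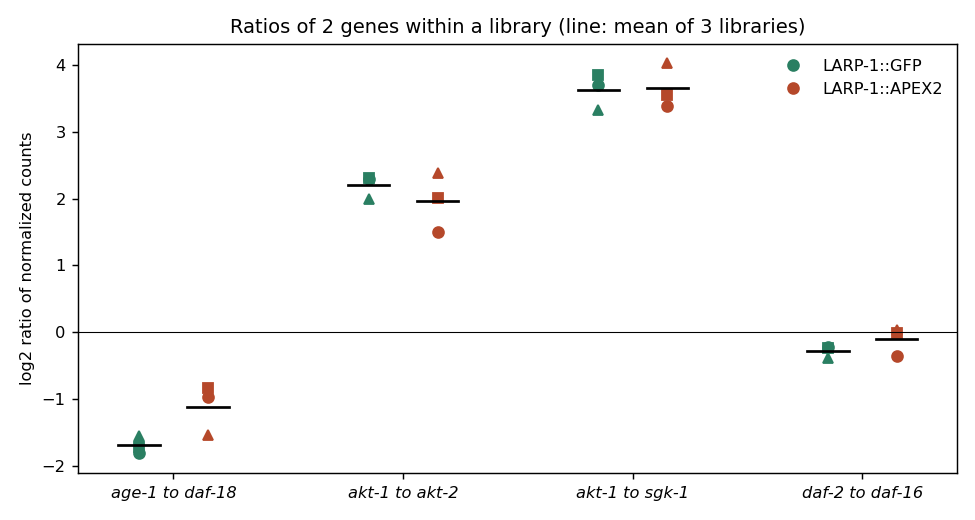
Log2 ratio of the normalized counts of 2 genes in the same library (y axis) for LARP-1::GFP (green) and LARP-1::APEX2 (red), with circle, square and triangle for replicates 1, 2 and 3 and a black line at the mean of 3 libraries. For age-1 to daf-18 all red symbols lie above the green ones, and for the other 3 ratios the groups overlap.

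All 16 genes of a list of DAF-16 regulators and cofactors were listed in the table and 15 tested, of which 5 rose, 1 fell and 9 did not pass, against 11.6% higher and 10.1% lower over all tested genes. The arginine methyltransferase gene prmt-1, whose product modifies DAF-16, had 3800, 4251 and 3794 normalized counts with GFP and 5781, 5477 and 4999 with APEX2, with no overlap. Its log2 difference was 0.46 ± 0.10 (limma adjusted p = 0.0044) and passed without any single library. The heat shock factor gene hsf-1 rose from 232, 214 and 208 to 289.9, 283 and 322 normalized counts, by 0.45 ± 0.12 (adjusted p = 0.018). With GFP replicate 2 or 3 left out, hsf-1 no longer passed (0.071 and 0.092). The transcription factor gene pqm-1, whose product is known to leave the nucleus when DAF-16 enters it, fell from 241, 251 and 291 to 189, 164 and 155. Its log2 difference was -0.62 ± 0.14 (adjusted p = 0.0058), and did not pass once GFP replicate 3 was left out (0.053).

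The other genes of that list that rose were the deubiquitinase gene math-33 at 0.35, the 14-3-3 gene ftt-2 at 0.37 and the importin gene imb-2 at 0.42 (limma adjusted p = 0.021, 0.033 and 0.040). Products of math-33 and imb-2 act on DAF-16 stability and nuclear entry, and 14-3-3 proteins hold DAF-16 in the cytoplasm. The groups overlapped for imb-2. None of these 3 genes passed when any GFP library was left out (highest adjusted p 0.091, 0.107 and 0.147). Nor did any pass when corrected for exonic length or with quantile normalization. Without APEX2 replicate 1, ftt-2 and imb-2 did not pass (limma adjusted p = 0.064 and 0.091) and math-33 did (0.031). With the replicate block, math-33 and ftt-2 did not pass (0.055 and 0.052) and imb-2 did (0.047). The length correction left 2 higher genes and 1 lower, where 1071 of 10495 tested genes rose and 981 fell. Quantile normalization left 2 higher and 2 lower, where 1086 of 10534 tested genes rose and 1132 fell. There was 1 higher and 1 lower gene without GFP replicate 2, where 783 of 10554 tested genes rose and 636 fell. Without GFP replicate 3 there was 1 higher and 0 lower, where 612 of 10522 tested genes rose and 550 fell. The ubiquitin ligase gene rle-1 had a difference of -0.39 and the stress factor gene skn-1 of 0.34, and neither passed (adjusted p = 0.095 and 0.061). The median log2 difference of the 15 genes was 0.19.

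Most tested genes of a list known to be raised by active DAF-16 were lower with APEX2. This list, and that of genes lowered by DAF-16 below, came from general knowledge of the pathway. Both were chosen with earlier results of these data known, so their counts are a description beside the background. Of 20 such genes, 17 were listed and 14 had a mean of at least 10, of which 9 fell, 2 rose and 3 did not pass. Over all tested genes 10.1% were lower and 11.6% higher. The list median was -0.61, against 0.02 for all tested genes. Without APEX2 replicate 1, 8 fell and 1 rose, where 1192 of 10555 tested genes fell and 1308 rose. Without GFP replicate 2 or 3 the number that fell was 6, where 636 of 10554 and 550 of 10522 tested genes fell. With all libraries, 1069 of 10534 tested genes fell. The minimum was set on the mean over all 6 libraries, so a gene low in 1 group could pass through the other, as the ferritin gene ftn-1 did through GFP (means of 16.4 and 6.05). With a minimum mean of 50, which leaves out ftn-1, 8 genes of the list fell, where 851 of 7023 tested genes fell. The metallothionein gene mtl-1 had 348, 261 and 359 normalized counts with GFP and 97.8, 75.6 and 97.6 with APEX2. All APEX2 libraries were far below all GFP libraries, with a log2 difference of -1.82 ± 0.17 (limma adjusted p = 9.4e-06), and -1.53 when corrected for exonic length (adjusted p = 3.6e-05). The alcohol dehydrogenase gene sodh-1 went from 1899, 1532 and 1927 to 721, 642 and 800.5, a difference of -1.31 ± 0.12 (adjusted p = 9.2e-06), and had no annotated length for that correction.

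The other falls in that list spanned stress protection, metabolism and innate immunity. The small heat shock gene hsp-12.6 fell, with a log2 difference of -1.37 ± 0.18, the late embryogenesis abundant protein gene lea-1 with -0.87 ± 0.10 and the glyoxylate cycle gene icl-1 with -0.63 ± 0.12 (limma adjusted p = 0.00015, 4.9e-05 and 0.0016). The saposin-like gene spp-1 had -0.81 ± 0.14, the lysozyme gene lys-7 -0.54 ± 0.14, the catalase gene ctl-2 -0.35 ± 0.11 and ftn-1 -1.28 ± 0.39 (adjusted p = 0.0011, 0.017, 0.036 and 0.030). The calls of mtl-1, sodh-1, hsp-12.6, lea-1, icl-1 and spp-1 held without any single library. Those of lys-7 (highest adjusted p 0.105), ctl-2 (0.121) and ftn-1 (0.123) were lost when GFP replicate 3 was left out, and when any of 1 to 4 other libraries was. The call of ctl-2 was also lost with the replicate block (limma adjusted p = 0.064) and that of ftn-1 with quantile normalization. Without GFP replicate 2, ftn-1 had a mean under 10 and was not tested. The gene sod-3, a widely used reporter of DAF-16, was not tested, with 4.91, 6.72 and 5.71 normalized counts with GFP and 1.18, 12.1 and 7.61 with APEX2.

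Against the list's direction, fat-7 rose from 174, 146 and 158 to 296, 330.3 and 320.3 normalized counts, by 0.99 ± 0.13 (limma adjusted p = 0.00018), a call that held without any single library. Its relative fat-5 rose by 0.58 ± 0.19 (adjusted p = 0.042). It did not pass when any library but APEX2 replicate 3 was left out (highest adjusted p 0.18), nor with edgeR (0.051) or DESeq2 (0.083). With limma, fat-5 also failed with no filter (adjusted p = 0.0579) and with libraries scaled to the same total (0.0635). The same held for length correction (0.0643) and the replicate block (0.0718). Both genes encode delta-9 fatty acid desaturases. The genes that did not pass were sip-1 at 0.14, dod-3 at 0.03 and aakg-4 at -0.59 (adjusted p = 0.49, 0.91 and 0.087).

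**Figure D5:**
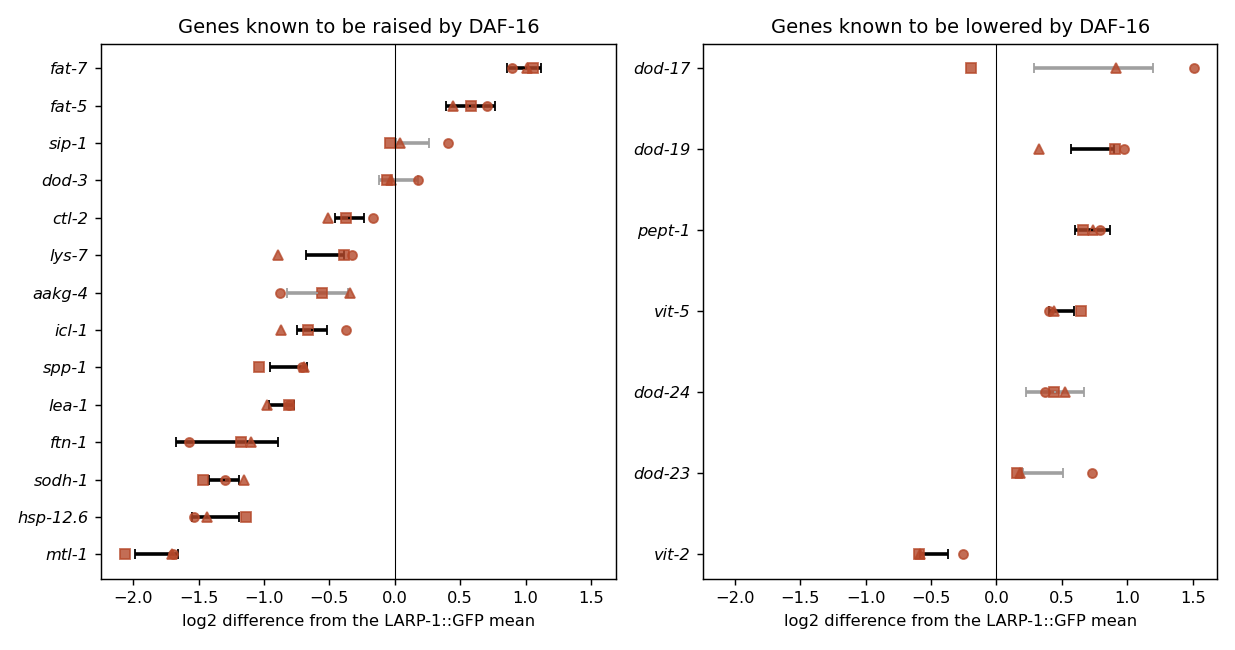
Log2 difference from the LARP-1::GFP mean (x axis) for the tested genes known to be raised (left) or lowered (right) by DAF-16, with circle, square and triangle for APEX2 replicates 1, 2 and 3 and a bar for the mean difference ± SE, black for adjusted p under 0.05 and grey otherwise. On the left 9 genes lie below 0 in black and fat-7 and fat-5 above it, and on the right dod-19, pept-1 and vit-5 lie above 0 in black and vit-2 below it.

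Of 13 genes known to be lowered by DAF-16, 10 were listed and 7 tested, of which 3 rose, 1 fell and 3 did not pass. Over all tested genes 11.6% were higher and 10.1% lower, and the counts were 3 and 1 under every alternative run. The intestinal peptide transporter gene pept-1 rose from 160.0, 168 and 139 to 269.9, 246 and 260.1 normalized counts, by 0.73 ± 0.13 (limma adjusted p = 0.0017). The gene dod-19 rose by 0.73 ± 0.16 (adjusted p = 0.0056). The yolk protein genes went apart: vit-5 rose by 0.50 ± 0.10 and vit-2 fell with -0.48 ± 0.11 (adjusted p = 0.0025 and 0.0061). Reads of vitellogenin genes may be split among near-identical copies, which was not tested, so these 2 values are uncertain. The list median was 0.50.

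Several of these targets are made in the intestine, and cell type markers were set beside them. The counts below stand against 11.6% of all tested genes higher and 10.1% lower. Of 4 intestine markers, the proton pump gene vha-6 rose by 0.54 (limma adjusted p = 0.014), and ges-1 at -0.51, elt-2 at -0.41 and ifb-2 at 0.13 did not pass. Their summed level was 2018 to 2299.6 normalized counts with GFP and 3512, 2446 and 2332 in APEX2 replicates 1 to 3, and none was at 0. The median log2 difference of these 4 markers was -0.14, so the sum and the median went opposite ways. Of 4 oocyte markers 3 rose and 1 fell, with sums of 13683 to 14173 against 16717 to 17132, and none at 0. Of 5 germline markers glh-1 rose, pgl-1 and htp-3 fell and 2 did not pass, with sums of 10756 to 11569 against 11550 to 12211, and none at 0. Of 4 hypodermis markers, bli-1 rose from a mean of 8.26 to 30.9 normalized counts, by 1.76 (limma adjusted p = 0.0020), having passed the minimum only through APEX2, and the list's sums were 4219 to 5042 against 3680.2 to 5369. Of 4 muscle markers unc-15 rose by 0.30 and myo-3 fell with -0.53 (limma adjusted p = 0.047 and 0.016), with sums of 11758 to 14062 against 11373 to 14404. No marker of neurons, pharynx or sperm passed. The part of these markers in the differences of age-1, daf-16 and the DAF-16 lists was not tested.

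Over the 6 libraries, the 3 genes among 4497 candidates whose log2 values followed those of daf-2 most closely were glo-2, tol-1 and klp-16 (Pearson r = 0.99, 0.99 and 0.97). The lysosome-related organelle gene glo-2 had a log2 difference of -0.36, the Toll-like receptor gene tol-1 of -0.30 and the kinesin gene klp-16 of -0.34, and klp-16 alone passed (limma adjusted p = 0.045). For daf-16 the closest were rpl-16, gck-1 and sep-1 (r = 0.997, 0.994 and 0.991). The ribosomal protein gene rpl-16 had a log2 difference of -0.62 (adjusted p = 0.0022). The kinase gene gck-1 and the separase gene sep-1 each had -0.28 and did not pass (adjusted p = 0.075 and 0.071). These likenesses describe 6 points that share 2 groups and were picked as the highest of many.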

How the data were processed

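The authors deposited 1 table of normalized counts, a signal obtained by dividing reads per gene by a size factor for each library. This was read from the values: dividing each by what 1 read is worth in its library gave whole reads for 100%, within 0.001 of a read. Per the submitters' processing notes, the build was ce11 and the tools included STAR, featureCounts, Trim Galore, Bowtie and DESeq2. For counting, the use of strand is not given in the sources used here, so reads of overlapping genes cannot be told apart.

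Genes with a mean of at least 10 over the 6 libraries were tested as log2(value + 1) using limma 3.58.1 (R 4.3.3), whose variance prior was robust and followed the mean, without covariates. The Benjamini-Hochberg adjustment covered the 10534 tested genes. For low genes, fold changes on this scale are understated. Other settings were edgeR 4.0.16 and DESeq2 1.42.0 on recovered reads, other pseudocounts, filters and scalings, a lowess correction for exonic length, a replicate block and leaving out each library. The scripts were tested on simulated data. The members and lists were chosen with earlier results of these data known, and the lists come from general knowledge of the pathway. The settings were applied to the 5 pathway lists after seeing the data. In each list the rule named the 2 risen and the 2 fallen genes with the lowest adjusted p. It also named the 3 genes most correlated with daf-2 and with daf-16, among those with a mean of at least 50, and genes overlapping a member. Other genes were named after their values were seen.

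Gene models came from Ensembl for WBcel235, which is the ce11 assembly, and coordinates are 1-based. Of 16262 listed genes, 47 had no match. Sequences were not used here. No replicates of a group matched within sampling noise (2.62 to 10.7 in chi-square divided by its degrees of freedom). Whether replicates came from separate cultures is not in the labels. The p-values then reflect only the spread between these libraries, which may be technical.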

Additional observations from a re-analysis of the deposited data

How the results depend on the processing

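The call of age-1 held under each alternative run, and that of daf-16 under all but the replicate block and 5 of the 6 left-out libraries. Deviations from the group means correlated at -0.16, -0.08 and 0.02 between same-numbered libraries of the 2 strains. With 3 libraries per group, these values cannot show whether same-numbered libraries were prepared together. With the block, daf-16 stood at -0.356 (limma adjusted p = 0.067), leaving 0 lower genes among the 8, and calls over all genes numbered 984 higher and 883 lower. Leaving out 1 library gave 612 to 1308 higher and 550 to 1192 lower genes in all, 0 to 1 lower among the 8, daf-16 at -0.417 to -0.286, akt-2 at -0.0208 to 0.234, daf-18 at -0.0963 to 0.095 and the ratio of akt-1 to sgk-1 at -0.165 to 0.156. The sign of daf-18 turned with libraries scaled to the same total (-0.0343), quantile normalization (-0.0508) and length correction (-0.0498), and that of the akt-1 to sgk-1 ratio with quantile normalization (-0.0947). The causes were not tested. Of DAF-16 regulators, 2 rose with quantile normalization, 2 with length correction, 3 with the block and 1 to 5 without 1 library. In the same list 2 fell at the same total, 2 with quantile normalization and 0 to 2 without 1 library. Over all tested genes, 1086 rose with quantile normalization and 1071 with length correction. At the same total 1220 fell, and with quantile normalization 1132. Of genes known to be raised by DAF-16, 1 rose with no filter, edgeR, DESeq2, the same total, length correction or the block, and 1 to 2 without 1 library. Over all tested genes, 1159 rose with no filter, 1121 with edgeR, 1034 with DESeq2 and 964 at the same total. Genes with few reads, such as sgk-1 and pdk-1, had the widest intervals of the 8.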
